A study of Mus musculus with 12 samples.

Results

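The interferon-inducible GTPases described here are 7 mouse genes of the immunity-related GTPase (IRG) and guanylate-binding protein (GBP) families, Igtp, Ifi47, Irgm1, Iigp1, Tgtp1, Gbp2 and Gbp3. They were chosen by name, with earlier results of these data known. Every non-control probe whose accession matched one of them was taken, which gave 9 probes among 24375 probes with a gene symbol (17016 symbols). The probes were read in islets of 6 female NOD mice and 6 female NOD.B10 mice, all 12 weeks old. NOD mice develop autoimmune diabetes with leukocyte infiltration of the islets, and NOD.B10 mice, an MHC-congenic strain on the NOD background that does not become diabetic, were the healthy controls. The labels name no treatment in either strain. Islets were captured by laser from 8 μm cryosections, at least 40 islets per sample, so a captured islet includes any leukocytes within it. The amplified islet RNA, labelled with Cy5, was hybridised on 12 Agilent 2-colour arrays against 1 common mouse reference RNA labelled with Cy3, without a dye swap. The question of the comparison is which transcripts differ in islets of the diabetes-prone strain.

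IRG and GBP proteins are GTPases that cells make in response to interferons, above all interferon gamma. Interferon gamma binds the receptor chains Ifngr1 and Ifngr2, the kinases Jak1 and Jak2 then pass the signal on, and transcription factors that include the induced factor Irf1 switch on the GTPase genes. In mouse cells the products gather on the membranes of vacuoles that hold parasites or bacteria. Irgm1 and Igtp (also called Irgm3) belong to the regulatory IRG proteins, which sit on the cell's own membranes and keep the effector IRG proteins inactive there. Tgtp1 (Irgb6), Iigp1 (Irga6) and Ifi47 (Irgd) belong to the effector type, which loads onto the vacuole. GBPs are larger, dynamin-related GTPases. Gbp2 is lipid-anchored and coats such vacuoles, and Gbp3 is a close relative encoded beside it.

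The sequence near the start sites is shown first, as background on genes chosen as interferon-inducible. Letters that interferon-activated factors are known to prefer were looked for in it. Their part in the strain difference was not tested. RefSeq windows of 250 bases before to 50 bases after the start site (assembly GRCm38.p6) were at hand for 6 of the 7 genes, all but Iigp1. They were searched on both strands for the interferon-stimulated response element (ISRE), bound by IRF family factors, written here as a pair of GAAA on 1 strand with 2 bases between them, and for the gamma-activated sequence (GAS), known from genes that answer to interferon gamma, written as TTCNNNGAA. The windows shown are those of Igtp at chr11:58199306-58199605 (+ strand), Irgm1 at chr11:48871371-48871670 (- strand), Tgtp1 at chr11:48992197-48992496 (- strand), Gbp2 at chr3:142620413-142620712 (+ strand) and the first start site of Gbp3 at chr3:142559794-142560093 (+ strand). They are the member windows with a match, 5′ to 3′ in the direction of transcription, and capitals mark the matches.
Igtp: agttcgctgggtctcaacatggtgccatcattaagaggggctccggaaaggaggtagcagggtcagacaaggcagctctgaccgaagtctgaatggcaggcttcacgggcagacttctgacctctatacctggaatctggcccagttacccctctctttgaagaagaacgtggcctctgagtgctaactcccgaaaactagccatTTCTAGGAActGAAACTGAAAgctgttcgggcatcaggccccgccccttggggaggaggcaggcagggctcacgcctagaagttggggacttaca
Irgm1: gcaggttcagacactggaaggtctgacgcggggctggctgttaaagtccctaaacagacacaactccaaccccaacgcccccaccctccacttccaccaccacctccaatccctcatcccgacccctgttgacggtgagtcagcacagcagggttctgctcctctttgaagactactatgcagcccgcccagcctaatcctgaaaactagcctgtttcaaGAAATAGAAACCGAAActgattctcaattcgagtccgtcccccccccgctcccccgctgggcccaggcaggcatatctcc
Tgtp1: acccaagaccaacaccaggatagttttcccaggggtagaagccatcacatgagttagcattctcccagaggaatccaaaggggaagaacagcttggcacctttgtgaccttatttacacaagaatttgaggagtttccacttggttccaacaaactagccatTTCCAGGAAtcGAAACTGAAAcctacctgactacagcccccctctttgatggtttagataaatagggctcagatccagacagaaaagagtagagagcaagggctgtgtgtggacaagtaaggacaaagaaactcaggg
Gbp2: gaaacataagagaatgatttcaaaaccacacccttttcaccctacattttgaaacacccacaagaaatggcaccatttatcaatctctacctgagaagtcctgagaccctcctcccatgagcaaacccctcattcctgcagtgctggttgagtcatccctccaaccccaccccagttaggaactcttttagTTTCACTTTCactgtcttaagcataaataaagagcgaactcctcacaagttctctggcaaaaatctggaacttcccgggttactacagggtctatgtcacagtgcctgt
Gbp3: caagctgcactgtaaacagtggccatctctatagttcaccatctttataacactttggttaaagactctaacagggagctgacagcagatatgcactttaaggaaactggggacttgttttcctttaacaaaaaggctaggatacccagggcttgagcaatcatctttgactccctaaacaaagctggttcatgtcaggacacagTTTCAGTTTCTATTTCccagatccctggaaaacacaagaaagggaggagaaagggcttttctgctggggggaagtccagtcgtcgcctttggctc

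The ISRE letters were found in the windows of 5 of these genes, Igtp, Irgm1, Tgtp1, Gbp2 and Gbp3, while 3.44% of all 32851 windows hold them. The matches begin 34 bases before the start site in Igtp, 77 in Tgtp1 and 59 in Gbp2. Irgm1 has a pair of ISRE matches, beginning 30 and 24 bases before the start, that overlap each other. Gbp3 has an overlapping pair as well, beginning 45 and 39 bases before its first start site, and the window of its second start site has no match. GAS letters were found in Igtp and Tgtp1 only, beginning 45 and 88 bases before the start, against 8.3% of all windows. In both genes the GAS match is followed on the same strand by 2 bases and then by the ISRE match. This joint arrangement was found in 5 of the 32851 windows (0.0152%), those of Igtp, Tgtp1, Irgm2, Tgtp2 and Gm12185, which all lie on chromosome 11. Irgm2 is a further regulatory IRG gene and the neighbour of Igtp. Lined up on the GAS match without gaps, 98 of 100 bases, mostly downstream of it, were equal in Igtp and Irgm2. Over all 270 bases compared, 68.1% were equal. For Tgtp1 and Tgtp2 the values were 53 of 100 bases and 38.9% of 293 bases. Past the ISRE match these windows are shifted against each other, which lowers a count made without gaps. The values of Tgtp1 and Tgtp2 therefore do not measure how alike their windows are. The window of Ifi47 held neither set of letters. These matches describe the letters in the windows and no binding was measured.

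**Figure D1:**
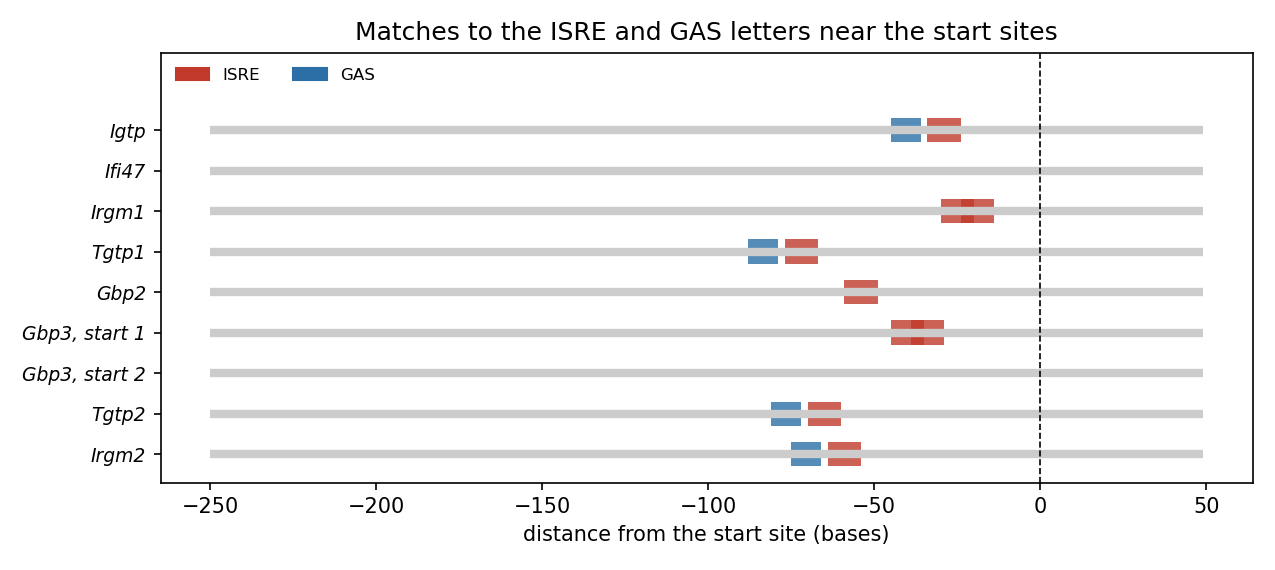
Matches to the ISRE letters (red) and the GAS letters (blue) by distance from the start site in bases, 1 grey bar per RefSeq window of 300 bases. Igtp, Tgtp1, Tgtp2 and Irgm2 share a GAS match followed by an ISRE match, Irgm1 and the first Gbp3 window have overlapping ISRE matches, and Ifi47 and the second Gbp3 window have none.

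Islet RNA gave a brighter Cy5 channel on the NOD arrays, and this bears on every value below. Cy5 was well above background, by the scanner's own mark, on 14 ± 2.55% of non-control spots in NOD and on 6.21 ± 1.37% in NOD.B10 (SD, n = 6 each, exact 2-sided permutation p = 0.00216, the smallest this design can give). Cy3, the common reference, was well above background on 50.4 ± 1.94% in NOD, against 50.1 ± 2.27% in NOD.B10 (SD, n = 6 each, exact permutation p = 0.781). Over the 1083 probes well above background on all 12 arrays, the median net Cy5 signal (spot minus local background, scanner units) ran from 68 to 208.5 in NOD and from 23 to 49 in NOD.B10. The arrays lay on 4 slides. Slide 1 held NOD replicates 1 and 2, slide 4 held NOD.B10 replicates 2 and 3 and was read on another day, and slides 2 and 3 held 2 arrays of each strain. The insulin gene Ins2 was well above background on all 12 arrays, as the islet label asks, with net Cy5 of 12500 ± 6870 in NOD, against 14200 ± 5550 in NOD.B10 (SD, n = 6 each), and its log2 ratio was lower in NOD by a difference of -3.35 (limma adjusted p = 0.000642), though median centring called 0 genes of any kind lower.

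All 7 GTPase genes rose in NOD islets, and no NOD array overlapped the NOD.B10 arrays for any of them. Each had 1 probe that was well above background in Cy5 on 6 of 6 NOD arrays and on 0 of 6 NOD.B10 arrays. The limma test called 7 of 7 higher at a Benjamini-Hochberg adjusted p under 0.05, where 18.8% of the 3920 genes tested were called higher and 18.1% lower. NOD values lay above every NOD.B10 value for 7 of 7, against 9.52% of all genes tested. The 7 genes were chosen with earlier results of these data known, so these counts describe them and do not test the families. A gene had to be well above background on at least 4 arrays to be tested, so all 7 entered through their NOD signal and had to differ in brightness. The fitting comparison is therefore with the 370 tested genes that share this pattern of 6 NOD and 0 NOD.B10 arrays, 9.44% of all tested. Of these 42.2% were called higher with a lower bound above 1, as 6 of the 7 GTPase genes were. Of the 370, 48.1% were called higher, 5.95% were called lower and 36.8% had groups that did not overlap. Their median log2 difference was 0.33 (quartiles 0.066 and 0.88), against -0.0059 for all genes tested and 1.66 for the 7 GTPase genes. Changes are differences in log2 of Cy5 over Cy3 between NOD and NOD.B10. Where no NOD.B10 array read a gene above background, its fold is a lower bound. There a NOD.B10 signal counts as at least the 10th percentile of that array's signals well above background. Bounds were computed on the Cy5 signal after average intensities were normalised between arrays, not on the Cy5 over Cy3 ratio. On that scale the NOD.B10 signals of Igtp and Iigp1 lay above this floor. Their value is thus the plain fold of normalised Cy5. In bulk islet RNA, more cells that express a gene and more RNA of it per cell cannot be told apart.

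**Figure D2:**
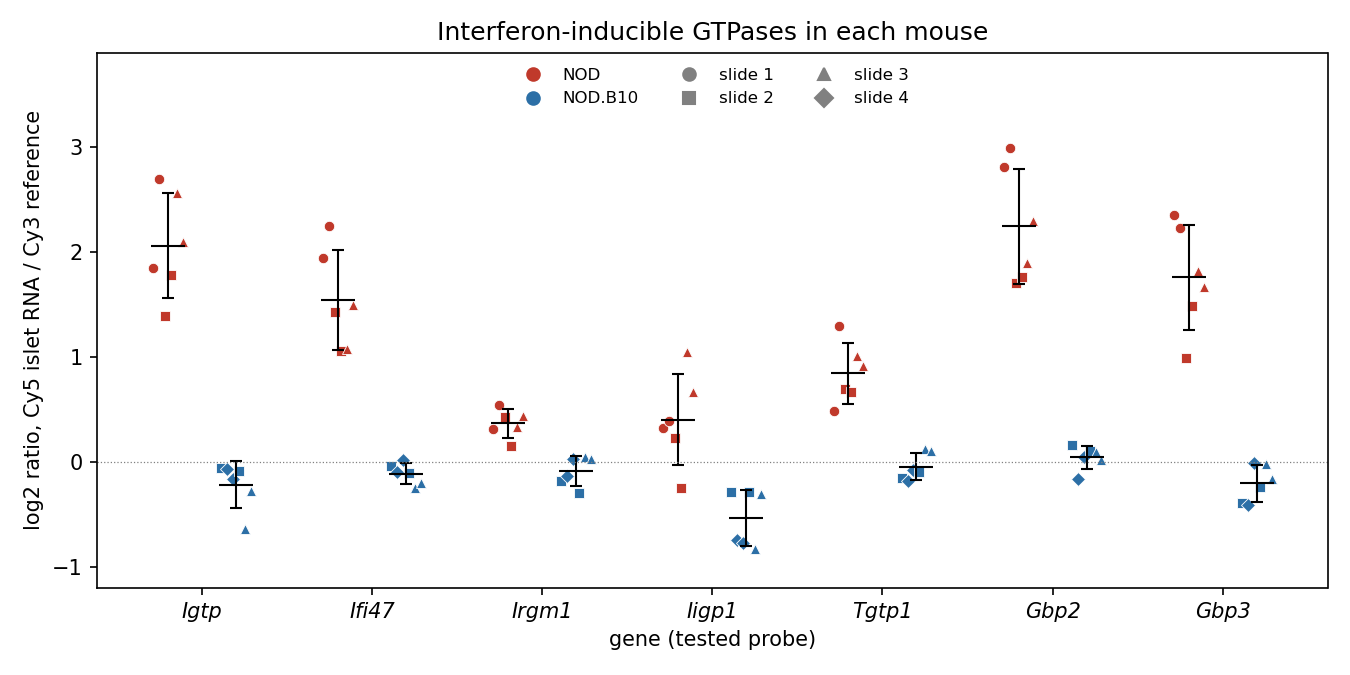
Log2 ratio of Cy5 islet RNA over Cy3 reference RNA for the tested probe of each gene, 1 point per mouse (NOD red, NOD.B10 blue, n = 6 each), point shapes for the slides, black bars for mean and SD. For each gene the lowest NOD point lies above the highest NOD.B10 point, by 0.039 for Iigp1 and by 1.54 for Gbp2.

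Among the regulatory IRG genes, Igtp had a large difference and Irgm1 a small one with the processing used here. Net Cy5 of Igtp had a lowest value of 123.5, a median of 222.5 and a highest of 560 in NOD, against -0.5, 8.5 and 12 in NOD.B10. Its log2 ratio was 1.39, 1.98 and 2.70 (lowest, median, highest) in NOD and -0.64, -0.12 and -0.058 in NOD.B10. The groups stood apart by 1.45, from the lowest NOD to the highest NOD.B10 array. The log2 difference was 2.28 ± 0.21 (SE, n = 6 per strain, limma adjusted p = 1.33e-05). On normalised Cy5 Igtp was 3.86-fold higher, a value that the floor did not change. Irgm1 gave a dim spot, with net Cy5 of 13, 22 and 44 in NOD and -4, 2 and 5 in NOD.B10. The log2 ratio was 0.15, 0.38 and 0.54 in NOD and -0.30, -0.057 and 0.050 in NOD.B10. Its log2 difference was 0.45 ± 0.099 (SE, limma adjusted p = 0.00335), at least 1.12-fold higher. The NOD arrays were the higher ones here too, but the gap between the lowest NOD and the highest NOD.B10 value was only 0.10 on the log2 scale. A second Irgm1 probe read 1.75 ± 1.48 in NOD, against 0.333 ± 4.24 in NOD.B10 (SD, n = 6 each) and was well above background in Cy5 on 0 of 12 arrays. It was also dim in the reference channel, with net Cy3 of 12.9 ± 3.01 on NOD and 14.7 ± 2.27 on NOD.B10 arrays.

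The effector IRG genes differed from one another in how far the strains stood apart. Ifi47 read 52, 87.75 and 233.5 net Cy5 (lowest, median, highest) in NOD and 0, 2.5 and 5 in NOD.B10. The log2 ratio was 1.06, 1.46 and 2.25 in NOD and -0.25, -0.11 and 0.024 in NOD.B10, and NOD replicates 1 and 2 were the highest, at 1.94 and 2.25. Its log2 difference was 1.66 ± 0.19 (SE, n = 6 per strain, limma adjusted p = 5.86e-05), at least 2.67-fold higher. Every NOD mouse had at least 52 units where no NOD.B10 mouse passed 5. Tgtp1 read 15.5, 24 and 44 in NOD and -2, -0.25 and 4.5 in NOD.B10. Its log2 ratio was 0.48, 0.80 and 1.30 in NOD and -0.18, -0.090 and 0.12 in NOD.B10, with a log2 difference of 0.89 ± 0.13 (SE, limma adjusted p = 0.000349). No fold is given for Tgtp1, because its NOD signal lay under the floor used for the bound. The bound was 1.66-fold with the floor at the lowest signal well above background. The Tgtp1 probe may also bind transcripts of Tgtp2, to which no probe was matched. A second Tgtp1 probe was well above background in neither channel on any array, with net Cy5 of 0.5 ± 1.48 in NOD, against 0.75 ± 2.36 in NOD.B10 (SD, n = 6 each).

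Iigp1 had the narrowest gap. Its net Cy5 was 42.5, 103.2 and 176 in NOD and -1, 2.5 and 9 in NOD.B10, so the raw signals stood well apart. The log2 ratio was -0.25, 0.36 and 1.05 in NOD against -0.83, -0.53 and -0.29 in NOD.B10. The log2 difference was 0.94 ± 0.19 (SE, n = 6 per strain, limma adjusted p = 0.00244). On normalised Cy5 Iigp1 was 1.70-fold higher, a value that the floor did not change. NOD replicate 4 at -0.25 was close to NOD.B10 replicates 1 and 4 at -0.29, all 3 on slide 2. The reference RNA read brightly for this probe, with net Cy3 of 3353 ± 293 on NOD arrays and 3672 ± 1250 on NOD.B10 arrays (SD, n = 6 each). The highest Cy3 values were those of NOD.B10 replicates 2 and 3 on slide 4, at 5182 and 5281. Without slide 4 the log2 difference of Iigp1 was 0.83.

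Both GBP genes stood far apart between the strains. Gbp2 had net Cy5 of 67.5, 93.5 and 239.5 (lowest, median, highest) in NOD and -0.5, 4.25 and 6.5 in NOD.B10. The log2 ratio was 1.71, 2.10 and 2.99 in NOD and -0.16, 0.069 and 0.16 in NOD.B10, the widest gap of the 7 genes. Its log2 difference was 2.20 ± 0.21 (SE, n = 6 per strain, limma adjusted p = 1.85e-05), at least 2.81-fold higher. Gbp3 had net Cy5 of 44, 84.25 and 192 in NOD and -5, -0.75 and 4.5 in NOD.B10. Its log2 ratio was 0.99, 1.74 and 2.35 in NOD and -0.41, -0.20 and -0.011 in NOD.B10. The log2 difference was 1.96 ± 0.20 (SE, limma adjusted p = 2.84e-05), at least 2.57-fold higher. The groups of Gbp3 stood apart by 1.00 in log2 ratio.

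**Figure D3:**
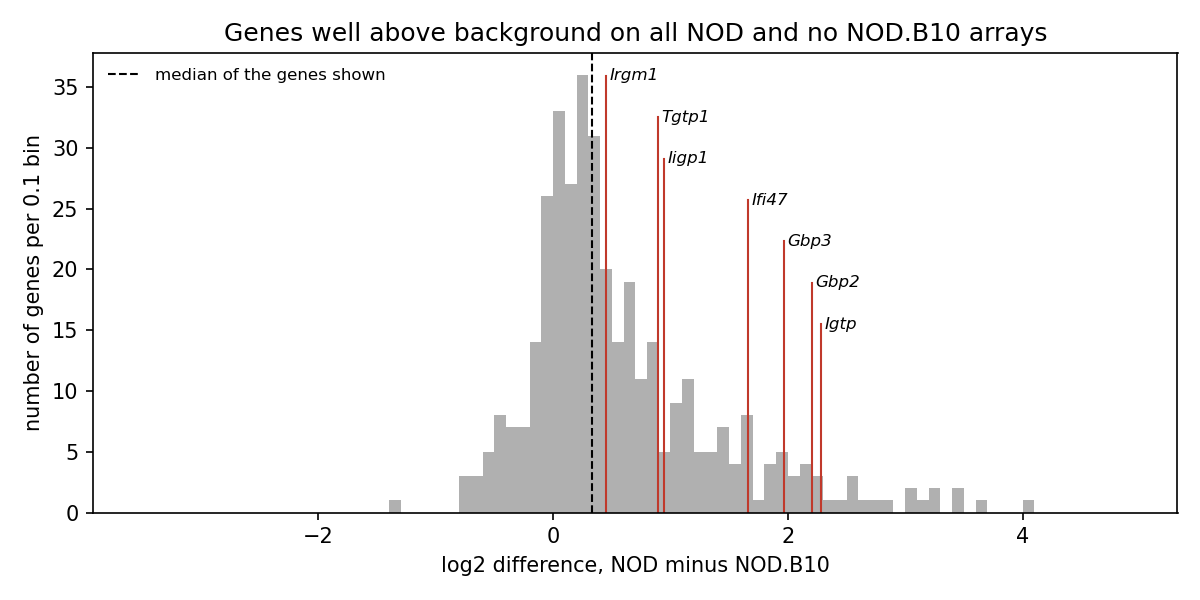
Histogram of the log2 difference (NOD minus NOD.B10) of the 370 tested genes that were well above background on 6 NOD and 0 NOD.B10 arrays, in bins of 0.1, with the median (dashed) and the 7 GTPase genes marked in red. Each GTPase gene lies above the median of 0.33, Irgm1 nearest to it and Igtp farthest.

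The size of these differences changed with the processing, and so did their order. The correction used adds an offset of 50 units to a signal, which shrinks the log2 ratio of a dim spot more than that of a bright one. The settings below differ in other steps too, and the share of the offset was not tested. On the scanner's processed ratio, which has no such offset, the log2 differences were 5.17 for Gbp3, 4.98 for Gbp2, 4.60 for Ifi47, 4.42 for Tgtp1, 4.04 for Igtp, 3.82 for Iigp1 and 2.85 for Irgm1, where the median of all genes was 0.48. Igtp, with the largest difference of the 7 as reported, came after Gbp3, Gbp2, Ifi47 and Tgtp1 there, and Irgm1 had the smallest on both scales. With plain background subtraction the order changed again. There Igtp had the smallest log2 difference of the 7, at 4.39, just under Irgm1 at 4.42, and Gbp3 the largest, at 8.00. With net Cy5 divided by the brightness of the array (the median of the 1083 probes bright on all arrays), Igtp stood at 2.65, Gbp3 at 2.25, Ifi47 at 2.01, Gbp2 at 1.98 and Iigp1 at 1.88, and these 5 passed limma. Tgtp1 (0.54, adjusted p = 0.21) and Irgm1 (0.24, adjusted p = 0.532) did not pass on that scale, where the median of all genes was -0.39. With median centring instead of loess Tgtp1 did not pass either (0.40, adjusted p = 0.0625) and stood at -0.038 relative to the median of all genes, and Irgm1 stood at 0.07. A fit that also held each array's percentage of bright spots as a covariate, a percentage that differs between the strains, called 0 of 7 (5 at an unadjusted p under 0.05), with log2 differences of 0.31 to 2.11.

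Within slides the differences kept their sign. In slide 2, with 2 arrays of each strain, log2 differences ran from 0.28 for Iigp1 to 1.66 for Igtp. In slide 3 they ran from 0.35 for Irgm1 to 2.79 for Igtp. Igtp and Gbp2 passed limma within slide 2 (adjusted p = 0.0403 and 0.0392), and none of the 7 within slide 3, where Igtp, Gbp2 and Gbp3 had an adjusted p of 0.0715. With slide as a fixed term 7 of 7 passed, at log2 differences of 0.44 for Irgm1 to 2.23 for Igtp.

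**Figure D4:**
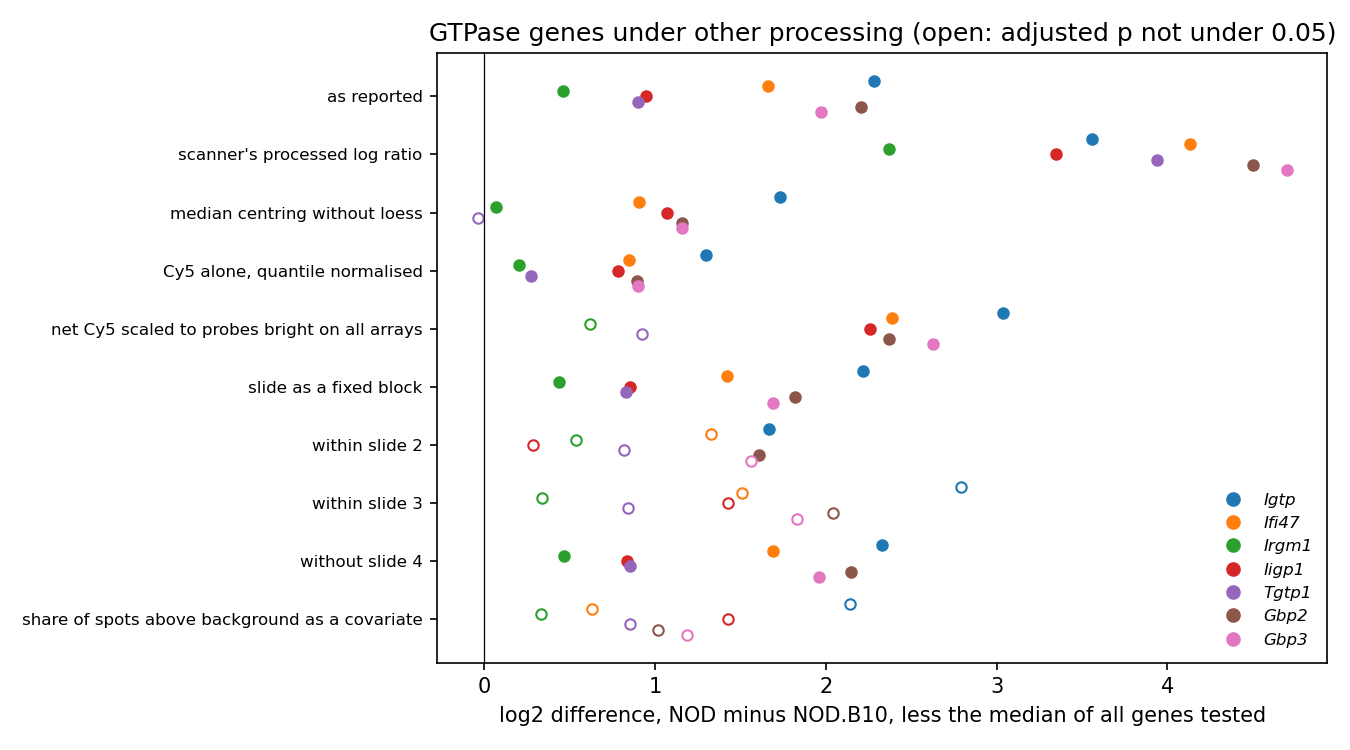
Log2 difference (NOD minus NOD.B10) of each GTPase gene, less the median of all genes tested, as reported and under 9 other settings. Filled points have an adjusted p under 0.05. Tgtp1 with median centring, at -0.038, is the lone point left of 0.

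Among the NOD mice the 7 genes did not rank alike. NOD replicate 2, from slide 1, had the highest log2 ratio for 5 of 7 genes, and the lowest value lay on slide 2 for 6 of 7. The mean log2 ratio over the 7 genes was 1.44 and 1.77 in NOD replicates 1 and 2, 0.98 and 0.95 in replicates 3 and 4, and 1.39 and 1.37 in replicates 5 and 6, against -0.12 to -0.26 over the NOD.B10 mice. After each strain's mean was taken off, Pearson's r between pairs of the 7 genes over the 12 arrays ran from -0.0083 to 0.89 with a median of 0.32 over 21 pairs, as a description of arrays that share slides and brightness. Outside the 7, the genes whose values followed their mean most closely in this way were Socs3 (r = 0.95), Cxcl13 (0.93), Lin54 (0.92), Bend3 (0.90), Adh5 (0.89) and Ccl8 (0.89), over 12 arrays. Socs3, an interferon- and cytokine-induced brake on JAK kinases, Cxcl13, a chemokine that draws B cells, and Ccl8, a monocyte chemokine, also rose in NOD, by at least 2.56-fold, 2.58-fold and 2.29-fold (limma adjusted p = 0.000143, 0.00209 and 1.75e-05). Lin54 (log2 0.0088, adjusted p = 0.95) and Adh5 (-0.34, adjusted p = 0.0516) did not pass, and Bend3 rose (0.39, adjusted p = 0.0289). With the brightness covariate Cxcl13 stood at -0.072 (adjusted p = 0.983).

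Leukocyte marker genes moved with the strains as the GTPase genes did, and their part in the result was not tested. Ptprc, the common leukocyte antigen, read 671 ± 494 net Cy5 in NOD, against 1.97 ± 1.51 in NOD.B10 (SD, n = 6 each). Of 17 macrophage and dendritic cell markers, 12 were well above background on some NOD array and 6 on some NOD.B10 array, with summed net Cy5 of 1220 to 8200 in NOD and 81.5 to 158 in NOD.B10. Of 18 T cell markers 8 were so on some NOD array and 1 on some NOD.B10 array, with sums of 148 to 814 in NOD and 11 to 49.6 in NOD.B10. Of 15 B and plasma cell markers 9 were so in NOD and 1 in NOD.B10, with sums of 430 to 3180 in NOD and 13.4 to 91.4 in NOD.B10. Of 11 cytotoxic and NK cell markers 5 were so in NOD and 0 in NOD.B10, with sums of 114 to 654 in NOD and -4.5 to 13 in NOD.B10. The defining markers Cd3e, Cd4, Cd79a, Itgam, Prf1 and Ncr1 were well above background on no array.

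Leukocyte marker and GTPase values differed among the NOD mice, and no relation between them was tested. Marker means by mouse cover only the tested markers, 8 B cell, 6 T cell, 10 macrophage and 4 cytotoxic. Of these, 8, 5, 4 and 4 were read on no NOD.B10 array. Over all markers with a probe, the NOD means of the log2 ratio were 0.955, 0.455, 0.859 and 0.652. NOD replicate 2 was the highest of the 6 on each marker mean and on the GTPase mean. Its mean log2 ratios were 2.40, 2.11, 1.91 and 2.35 for B cell, T cell, macrophage and cytotoxic markers, beside a GTPase mean of 1.77. NOD replicate 3 had 1.02, 0.56, 1.19 and 0.78 for the same tested markers, beside a GTPase mean of 0.98. NOD replicate 4 had 2.29, 1.54, 1.44 and 1.68, beside a GTPase mean of 0.95. In NOD replicate 5 the markers stood at 0.81, 0.58, 0.92 and 0.65, beside a GTPase mean of 1.39, an Igtp value of 2.56 and an Iigp1 value of 1.05. Beta cell markers summed to 4290 to 33200 in NOD and 12200 to 30900 in NOD.B10, endothelial markers to 344 to 677 in NOD and 113 to 3490 in NOD.B10, and acinar markers to 206 to 3590 in NOD and 174 to 6760 in NOD.B10, so these groups overlapped. On the log2 ratio 3 of 7 tested beta cell markers and 4 of 6 tested acinar markers fell in NOD, where 18.1% of all genes tested were called lower, 0 of either rose, and 0 of 5 tested endothelial markers passed (limma). The lower calls were all lost with median centring.

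Other members of the 2 GTPase families were mostly not measurable. A list of 24 further genes held IRG and GBP genes and the related Mx and very large GTPase genes. Of the 24, 14 had a probe, 3 passed the filter on dim signals and 3 of these rose. All 3 were read above background on NOD arrays alone, and 48.1% of the 370 genes read on 6 NOD and 0 NOD.B10 arrays were called higher. Gbp5, read on 4 NOD arrays, lies outside the 370. The log2 difference of Irgm2 was 0.88 ± 0.11 (SE, n = 6 per strain, limma adjusted p = 0.000117), at least 1.55-fold higher, with net Cy5 of 47.3 ± 21.7 in NOD and 2 ± 2.07 in NOD.B10 (SD). Gvin1, a very large interferon-induced GTPase, read 44.2 ± 32.1 in NOD and 2.83 ± 1.97 in NOD.B10, at least 1.27-fold higher (adjusted p = 0.00155). With the brightness covariate its log2 difference was -0.11 (adjusted p = 0.959). Gbp5, a GBP of inflammasome activation, was the weakest, with 11.2 ± 6.03 in NOD and -0.5 ± 5.48 in NOD.B10 and a log2 difference of 0.51 (adjusted p = 0.0168). Its sign turned with the scaling to array brightness (-0.52, adjusted p = 0.156), and it missed the threshold in the fixed slide fit (adjusted p = 0.16), without slide 4 (0.0972) and with Cy5 alone (0.0743). The lower bound of Gbp5 was 0.47-fold, which by itself shows no rise. Gbp2b, well above background on 2 NOD arrays, was not tested, and 10 others, Gbp4, Gbp6, Gbp7, Gbp8 and Gbp9 among them, were well above background on no array. The GBP genes that could be read were thus Gbp2, Gbp3 and Gbp5, and nothing can be said at this signal of the others.

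Several interferon signalling genes rose as well, with Ifngr1 the only receptor chain among them. The other receptor chain tested, Ifnar2, did not pass (log2 0.050, limma adjusted p = 0.776). Of 26 ligands, receptors and signalling genes 25 had a probe, 12 were tested, 8 rose and 0 fell, where 18.8% of all genes tested were called higher. Of the 12, 5 were read on no NOD.B10 array and 3 of these rose. The median log2 difference of the 12 was 0.66, against -0.0059 for all genes and 0.33 for the 370. The genes read on a NOD.B10 array lie outside the 370, and so do Ifnar2, Irf3 and Irf8, read on 4 or 5 NOD arrays. Ifngr1, the ligand-binding chain of the interferon gamma receptor, was well above background on all 12 arrays and so gives a measured fold. Its log2 ratio was 2.25 ± 0.85 in NOD, against -0.047 ± 0.29 in NOD.B10 (SD, n = 6 each), 4.91-fold higher (log2 2.30 ± 0.33, SE, limma adjusted p = 0.000272), with a log2 difference of 1.44 with Cy5 alone. The kinase Jak1, also read on all arrays, was 2.67-fold higher (adjusted p = 0.00199). Its log2 difference of 1.42 was 0.68 with Cy5 alone, and it did not pass with plain background subtraction (0.61, adjusted p = 0.147), and its log2 difference was -0.11 with the brightness covariate (adjusted p = 0.974). The transcription factor gene Irf1 was well above background on 6 NOD arrays and 1 NOD.B10 array. Net Cy5 of Irf1 was 154 ± 93 in NOD and 5.75 ± 7.49 in NOD.B10, with a log2 difference of 1.94 ± 0.22 (SE, limma adjusted p = 6.52e-05). A second Irf1 probe was well above background in Cy5 on no array. The feedback inhibitor Socs1 passed (log2 0.67, adjusted p = 0.000978) but not with median centring (adjusted p = 0.0719), where it stood at -0.15 relative to all genes, or with scaling to array brightness (adjusted p = 0.817). The lower bound of Socs1 was 0.69-fold, which by itself shows no rise. Neither interferon gamma nor its second receptor chain could be tested. The brighter of the Ifng probes was well above background on 2 NOD arrays and 0 NOD.B10 arrays, at 7.58 ± 9.63 in NOD and 0.833 ± 1.69 in NOD.B10. The brighter Ifngr2 probe was so on 1 array of each strain, and Ifna1, Ifna4 and Ifnb1 on none.

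Interferon-induced genes that are not GTPases rose in most cases that could be tested. Of 50 such genes 42 had a probe, 19 were tested, 14 rose and 1, Gch1, fell (log2 -0.38, adjusted p = 0.0257, not called lower with median centring), where 18.8% of all genes tested were called higher and 18.1% lower. Of the 19, 14 were read on no NOD.B10 array and 11 of these rose, beside 48.1% of the 370. Ifit3, Ifih1, Trim30a and Ifi204 are among the 14 but were read on 5 NOD arrays, so they lie outside the 370. The median log2 difference of the 19 was 0.62, against -0.0059 for all genes and 0.33 for the 370. B2m, which encodes beta-2-microglobulin, the invariant partner of MHC class I heavy chains, read 2370 ± 1337 net Cy5 in NOD, against 39.9 ± 10.3 in NOD.B10 (SD, n = 6 each) and was 19-fold higher (log2 4.25 ± 0.24, SE, limma adjusted p = 1.89e-07). The size of the B2m difference depends on the processing, with a log2 difference of 3.05 on the scanner's ratio and 3.26 with Cy5 alone. The chemokines Cxcl10 and Cxcl9, which draw T cells, were at least 3.02-fold and 1.68-fold higher (adjusted p = 6.16e-05 and 0.000156). Parp14, an ADP-ribosyltransferase, had a log2 difference of 1.29 ± 0.13 (SE, adjusted p = 1.94e-05).

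The autophagy and vacuole genes that work with IRG and GBP proteins mostly did not pass the test. Of 21 such genes 20 had a probe and 11 were tested, of which 1 rose and 2 fell, beside 18.8% of all genes called higher and 18.1% lower, with a median log2 difference of 0.0017. Trim21, an interferon-induced ubiquitin ligase, rose (log2 0.61, adjusted p = 0.000393), though not with scaling to array brightness (adjusted p = 0.855), and with median centring it stood at -0.077 relative to all genes. The lower bound of Trim21 was 0.98-fold, which by itself shows no rise. Map1lc3b and Gabarapl1, ubiquitin-like proteins of the autophagy membrane, fell by 0.41 and 0.71 on the log2 scale (adjusted p = 0.00972 and 0.0222). Both were nonetheless brighter in unscaled net Cy5 on the NOD arrays, at 28.2 ± 11.1 in NOD against 10.4 ± 4.32 in NOD.B10 for Map1lc3b and 96.9 ± 46 in NOD against 45.2 ± 10.1 in NOD.B10 for Gabarapl1. With median centring their log2 differences were 0.25 and 0.69, or -0.19 and 0.25 relative to all genes, so the sign of Gabarapl1 depends on the scaling. Map1lc3b also missed the threshold on the scanner's ratio (adjusted p = 0.316), and Gabarapl1 with slide as a fixed term (0.0556), without NOD replicate 2 (0.0515) and without NOD.B10 replicate 4 (0.0507). Sqstm1, the autophagy receptor p62, did not pass (log2 0.27, adjusted p = 0.355), nor did Atg5, Atg12 and Atg16l1 of the conjugation machinery.

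**Figure D5:**
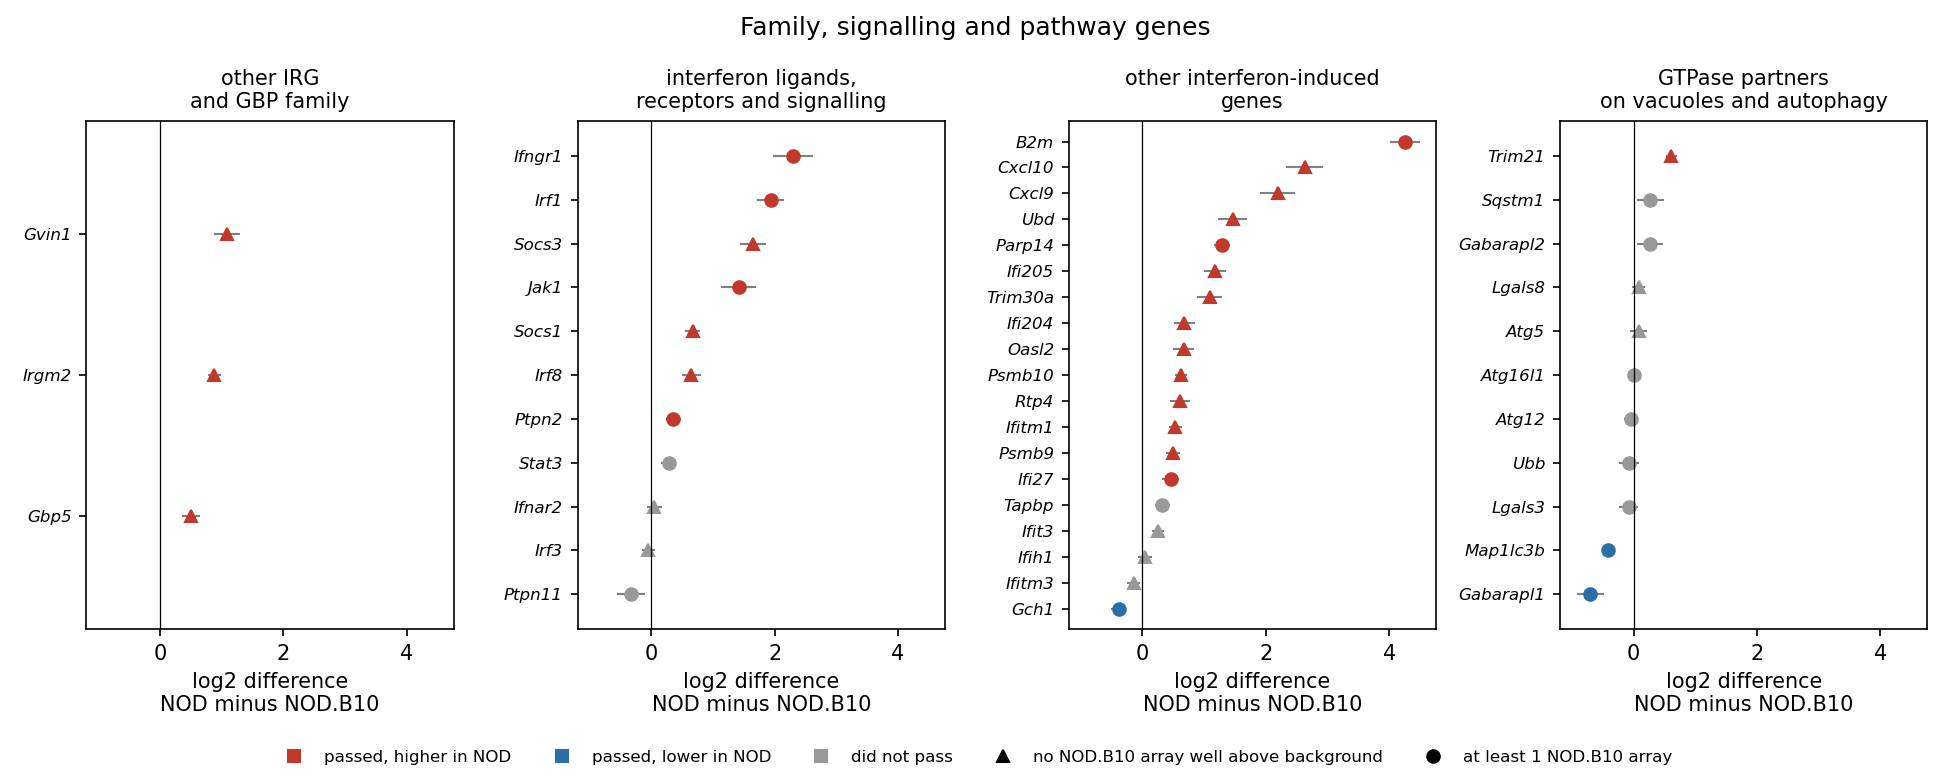
Log2 difference (NOD minus NOD.B10) with SE bars for tested genes of 4 lists, colour for the limma call and triangles for genes that no NOD.B10 array read above background. All 3 tested genes of the GTPase family list (Irgm2, Gbp5 and the very large GTPase gene Gvin1) were called higher, and 1 of 11 vacuole and autophagy genes.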

How the data were processed

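Per the file headers, the authors scanned the 12 2-colour arrays (design build mm8) and extracted them with Feature Extraction 10.5.1.1. The deposited intensity values used are spot and background medians, not normalised. The deposited log10 ratios are the scanner's processed Cy5 over Cy3. The deposited series table holds log2 values, of which 99.75% of 494088 lay within 0.01 of the log2 of that ratio. Its scale and direction come from this match, since the labels do not state them.

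Background was corrected by normexp (offset 50), followed by within-array loess, in limma 3.58.1 under R 4.3.3. Controls were left out, and 0 other spots were saturated. The 160 to 250 outlier spots per array were left out only where another spot of the same probe remained, and otherwise kept. Accessions were matched to RefSeq symbols of GRCm38.p6. Of 5347 probes well above background in Cy5 on at least 4 of 12 arrays, the brightest per symbol gave 3920 genes. Strains were compared with limma (lmFit, eBayes) and Benjamini-Hochberg adjustment over these genes, in steps tested on simulated data. Precision is limited by the 6 arrays per strain and by how dim the spots are. The scaling to array brightness used a pseudocount of 5 and was chosen after seeing the data.

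The 7 genes and the 11 gene lists were chosen with earlier results of these data known. The text names the 7 genes, up to 6 tested genes with the smallest p from the family and signalling lists and up to 4 from the other 2, the 6 genes most like the mean of the 7, and Irf1, Ifngr1, Ifngr2, Ifng, Ptprc, Cd3e, Cd79a and Ins2. A signalling gene that is counted in its list is not reported here. Any other gene was named after its values were seen. Alternatives were other normalisations, filters, slide and replicate terms and leaving out arrays. The labels do not say that replicate numbers pair the mice, so the main test used no pairing.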

Additional observations from a re-analysis of the deposited data

How the results depend on the processing

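The log2 difference of each of the 7 GTPase genes was positive under all 17 other settings and in all 12 fits without 1 array, where limma called 7 of 7 higher. These are not separate checks. Changing the filter, taking every probe as a feature or adding a replicate block left the differences unchanged, and the scanner's ratio and the series table gave the same ones. All 7 were tested through their NOD signal, so a positive sign says little. Less the median of all genes, Tgtp1 was above 0 in 16 of the 17 settings and each other gene in 17. All 7 were called in 12 of the 17 settings. The exceptions were median centring (6) and scaling to array brightness (5), the fits within slide 2 (2) and within slide 3 (0, with 6 at an unadjusted p under 0.05), and the covariate (0, with 5 unadjusted). Of all genes tested, 735 were called higher and 708 lower as reported. The split was 1095 and 313 on the scanner's ratio and in the series table, 879 and 247 with Cy5 alone, 527 and 309 with plain subtraction, 692 and 1394 with no filter, and 374 and 1090 with scaling to array brightness. Median centring called 1978 genes higher and 0 lower in limma, with 2 lower at unadjusted p under 0.05. A fixed slide term gave 361 and 354, slide 2 alone 38 and 46, slide 3 alone 1 and 1, and the covariate 3 and 0 (157 and 138 unadjusted). The within-slide fits hold 4 arrays each, and for the other shifts the cause was not tested. In the family and pathway lists 26 genes were called higher and 3 lower. Higher calls numbered 4 within slide 2, 1 within slide 3, 1 with the covariate and 16 with scaling to array brightness. Lower calls numbered 1 with Cy5 alone, 1 with slide as a fixed term, 0 with median centring (0 unadjusted), and 0 within slide 2, within slide 3 and with the covariate (1 unadjusted in each).

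Leaving out 1 array gave 601 to 851 genes higher, 577 to 808 lower, 24 to 27 list genes higher and 2 to 3 lower, and a strain difference in spots well above background of 7.18 to 8.51 percentage points (7.83 with all arrays). With a replicate block 638 genes were higher and 597 lower, and 7 of 7 GTPase genes passed. The block cost Gbp5 its call (adjusted p = 0.0618). Same-numbered arrays of the strains correlated at -0.147 to 0.212, and 2 NOD arrays correlated best with the NOD.B10 array of their own number. The labels state no pairing of the mice, and such correlations cannot exclude one. As no GTPase gene was well above background in any NOD.B10 mouse, its level there is only bounded.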

Other observations

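Summed over the 7 GTPase genes, net Cy5 was 4.06 to 8.02 times the median of the 1083 probes bright on all arrays in NOD, against 0.275 to 0.766 times in NOD.B10. The 7 genes were tested because NOD arrays read them, so the gap between these ranges is a description only.

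Irf1 and Ptprc had more than 1 probe, and these did not read alike. A second Irf1 probe was well above background in Cy5 on no array, at 0.75 ± 2.64 in NOD, against 0.833 ± 2.93 in NOD.B10 (SD, n = 6 each), where the tested one gave 154 ± 93 in NOD and 5.75 ± 7.49 in NOD.B10. The other Ptprc probes read 2.67 ± 1.72 and -0.333 ± 2.66 in NOD, and 1 ± 1.64 and 1.25 ± 1.21 in NOD.B10, where the tested one gave 671 ± 494 in NOD and 1.97 ± 1.51 in NOD.B10.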
